A study of Drosophila melanogaster with 2 samples.

Results

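The segment polarity genes are a textbook group of developmental regulators, and 10 of them were followed here: engrailed (en), invected (inv), wingless (wg), hedgehog (hh), patched (ptc), cubitus interruptus (ci), gooseberry (gsb), gooseberry-neuro (gsb-n), sloppy paired 1 (slp1) and sloppy paired 2 (slp2). They were taken by symbol from an expression table of 13623 genes, in which all 10 were found. Nuclear RNA was sequenced from 1 library of glial nuclei (glia) and 1 library of nuclei from Gcm-expressing neural progenitors (GNP). The glia library came from Drosophila melanogaster embryos 12 to 14 h after egg laying of the line repo-Gal4, UAS-3xFLAG-blrp-mCherry-RanGap over the balancer that the labels call Tm3B and the methods of the study Tm3. The GNP library came from embryos 5 to 7 h after egg laying that carried gcm-Gal4 and UAS-mCDGFP, together with the same UAS-3xFLAG-blrp-mCherry-RanGap transgene. That genotype is given over the balancer cyo, whereas the methods of the study name no balancer in the final line. In both lines Gal4 drives a FLAG-tagged protein of the nuclear envelope, and anti-FLAG beads then take these nuclei out of homogenised, pooled whole embryos. The tag therefore follows the repo driver in one line and the gcm driver in the other, and gcm is also used by precursors of hemocytes, the blood cells of the fly. The ages are those of the labels. For the same 2 h egg collections, the labels' growth protocol gives shorter further development than the methods of the study, which leaves the true ages uncertain. Driver, age of the embryo and cell type differ together between the libraries and cannot be told apart.

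In the early embryo these genes fix the pattern within each segment. Cells at the front of each parasegment make En and Inv, a pair of homeodomain repressors, and the secreted signal Hh. The row in front of them makes the secreted Wnt signal Wg, and the rows maintain each other across the border. Hh is received by Ptc, which in the absence of Hh holds the pathway off, and Ci is the zinc finger factor that the pathway controls. Gsb, a Pax factor, and Slp1 and Slp2, fork head factors, act in and around the wg row. The same genes are used again in the ventral neuroectoderm, where the row in which a neuroblast forms is one part of its identity, and gsb-n is known mainly from the nervous system.

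All 10 genes had lower values in the glia library than in the GNP library, while 43.4% of all genes did. Under the other settings run that share was between 39.4% and 54.7%. Values are FPKM, fragments scaled by transcript length and by the mapped reads of the library. The length scaling lets levels be compared between genes, while a comparison between libraries also depends on how they are scaled, as given below. Changes are given as log2((glia FPKM + 1)/(GNP FPKM + 1)), where 1 is a pseudocount that slightly understates the change of low genes. With 1 library per cell type there is no replicate, no difference has a replicate check, and a gene is called lower or higher here only in the sense of passing a 2-fold limit. On that limit 7 of the 10 genes were lower in glia, while 16.4% of all 13623 genes were. None of the 10 passed the limit in the other direction, while 21.2% of all genes were higher by it. The median log2 change of the 10 genes was -1.29, against 0.04 over all genes. The individual changes ran from -2.73 for gsb to -0.58 for inv. Because the RNA is a bulk sample of nuclei, fewer cells that use a gene and less RNA per cell cannot be told apart.

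In glia the levels lay nearer to that of the typical gene than in GNP. The 10 genes had a median of 11.9 FPKM in glia and 37.5 FPKM in GNP. The median of all genes was 8.22 FPKM in glia and 5.85 FPKM in GNP. The 10 values summed to 184 FPKM in glia and 464 FPKM in GNP. In glia the lowest member, gsb, lay above 45.7% of all genes and the highest, ci, above 85.3%. In GNP the lowest, hh, lay above 60.5% of all genes and ci above 95.1%. Within each library the genes were spread over a similar span, since the highest value was 8.41 times the lowest in glia and 10.3 times the lowest in GNP.

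**Figure D1:**
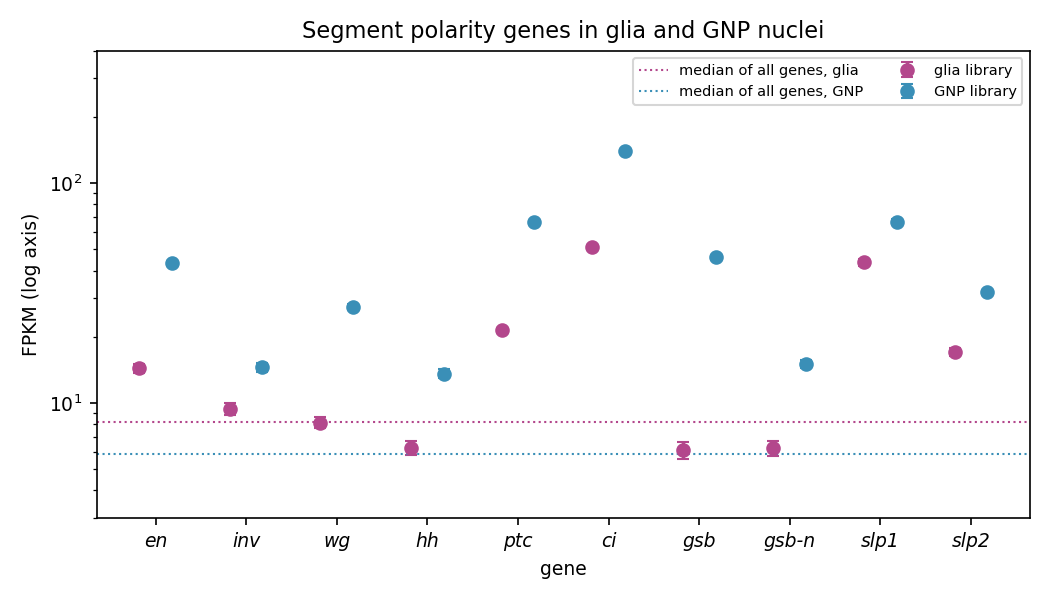
FPKM of each segment polarity gene (log axis) in the glia library and in the GNP library, 1 library each. Bars are exact 95% Poisson intervals of the estimated reads and cover counting error only, and dotted lines mark the median of all 13623 genes in each library. Every gene is lower in glia, and gsb, gsb-n and hh lie below the glia median of 8.22 FPKM there. The wg value also lies below it, but the interval of wg covers that median.

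The depth behind these values is large. The files give no read totals, but low FPKM values are spaced by what 1 read is worth, and with an assumed fragment length of 200 bases this spacing corresponds to 52.5 M mapped reads for glia and 64.0 M for GNP. On that basis the 10 genes had between 463 and 13392 reads in glia and between 1885 and 44592 reads in GNP. Intervals given below are exact 95% intervals on these estimated reads, computed with the shortest annotated transcript, and they cover counting error only. They say nothing about the spread between libraries of the same cell type.

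The signals were wg and hh. The wg gene lies on chromosome 2L of BDGP6 (chr2L:7307159-7316265, plus strand, 5 exons). It had 8.14 FPKM in glia (7.68 to 8.63), against 27.3 FPKM in GNP (26.5 to 28.0). The log2 change of wg was -1.63, so that 29.9% of its GNP value was left in glia. The hh gene lies on chromosome 3R (chr3R:23128169-23141906, minus strand, 3 exons). It had 6.24 FPKM in glia (5.79 to 6.72), against 13.6 FPKM in GNP (13.0 to 14.2). The log2 change of hh was -1.01, just past the 2-fold limit, with 46.0% of its GNP value left. The value of wg was 1.30 times that of hh in glia and 2.01 times that of hh in GNP. Thus both signals were lower in glia, and wg more so than hh, by 0.62 on the log2 scale with a counting error of 0.08 (SE).

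The Hh receptor and the pathway's transcription factor were the members with the most reads. The ptc gene lies on chromosome 2R (chr2R:8649649-8665223, plus strand, 6 exons), and its transcription is itself a standard readout of Hh signaling in the fly. It had 21.4 FPKM in glia (20.9 to 22.0), against 66.4 FPKM in GNP (65.6 to 67.3), a log2 change of -1.59. The ci gene lies on chromosome 4 (chr4:47710-57041, minus strand, 6 exons in each of its 3 transcripts). It had 51.1 FPKM in glia (50.3 to 52.1), against 139.7 FPKM in GNP (138 to 141), a log2 change of -1.43. The ci gene was the highest of the 10 in both libraries. The ci value was 2.39 times that of ptc in glia and 2.10 times that of ptc in GNP. Thus ci fell less than ptc, by 0.16 on the log2 scale with a counting error of 0.03 (SE). The ptc value stood at 3.43 times its ligand gene hh in glia and at 4.89 times hh in GNP. In BDGP6 a noncoding RNA lies antisense within each of ptc and ci. Neither is in the expression table, and the sources used here do not state that strand was used, so any reads from them cannot be told apart from those of ptc and ci.

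The Engrailed pair differed. The en gene (chr2R:11524006-11528210, minus strand, 3 exons in both transcripts) and inv (chr2R:11474465-11509695, plus strand, 4 or 5 exons) are related neighbours that share regulatory DNA, with 14310 bases between them in BDGP6. The en gene had 14.4 FPKM in glia (13.7 to 15.1), against 43.3 FPKM in GNP (42.2 to 44.4), a log2 change of -1.53. The inv gene had 9.36 FPKM in glia (8.79 to 9.95), against 14.5 FPKM in GNP (13.9 to 15.2), a log2 change of -0.58. This was the smallest change of the 10 and lay under the 2-fold limit. Consequently en stood at 1.53 times inv in glia and at 2.98 times inv in GNP. The change of en was lower than that of inv by 0.94 on the log2 scale, with a counting error of 0.07 (SE). The inv gene has 3 annotated transcripts of 2261 to 4776 bases, so its FPKM depends more than the others on which of them the reads were assigned to.

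The Gooseberry pair showed the widest gap. The genes gsb (chr2R:25061964-25064643, plus strand, 2 exons) and gsb-n (chr2R:25040383-25052331, minus strand, 5 exons) are Pax genes transcribed away from each other, with 9632 bases between them. The gsb gene, which is active early in the ectoderm and in neuroblasts of the wg row and the row behind it, had 6.08 FPKM in glia (5.55 to 6.67), against 45.9 FPKM in GNP (44.5 to 47.3). Its log2 change of -2.73 left 13.3% of the GNP value, and 229 of all 13623 genes had a lower log2 change. The gsb-n gene had 6.21 FPKM in glia (5.74 to 6.69), against 15.1 FPKM in GNP (14.4 to 15.8), a log2 change of -1.16. The gsb value was 0.98 times that of gsb-n in glia and 3.05 times that of gsb-n in GNP. Thus the 2 genes had overlapping counting intervals in glia but not in GNP. The change of gsb was lower by 1.57 on the log2 scale, with a counting error of 0.10 (SE).

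Both genes of the Sloppy paired pair lay under the 2-fold limit. The genes slp1 (chr2L:3825675-3827099) and slp2 (chr2L:3836840-3839185) lie on the plus strand with 1 exon each and 9740 bases between them. The slp1 gene had 43.6 FPKM in glia (42.0 to 45.3), against 66.9 FPKM in GNP (65.1 to 68.7), a log2 change of -0.61. The slp2 gene had 17.1 FPKM in glia (16.3 to 17.8), against 31.8 FPKM in GNP (30.9 to 32.8), a log2 change of -0.86. Of the GNP value 65.2% was left in glia for slp1 and 53.6% for slp2. The slp1 value was 2.56 times that of slp2 in glia and 2.10 times that of slp2 in GNP. The fall of slp1 was smaller than that of slp2 by 0.26 on the log2 scale, with a counting error of 0.05 (SE). This is the smallest difference within the 3 pairs.

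**Figure D2:**
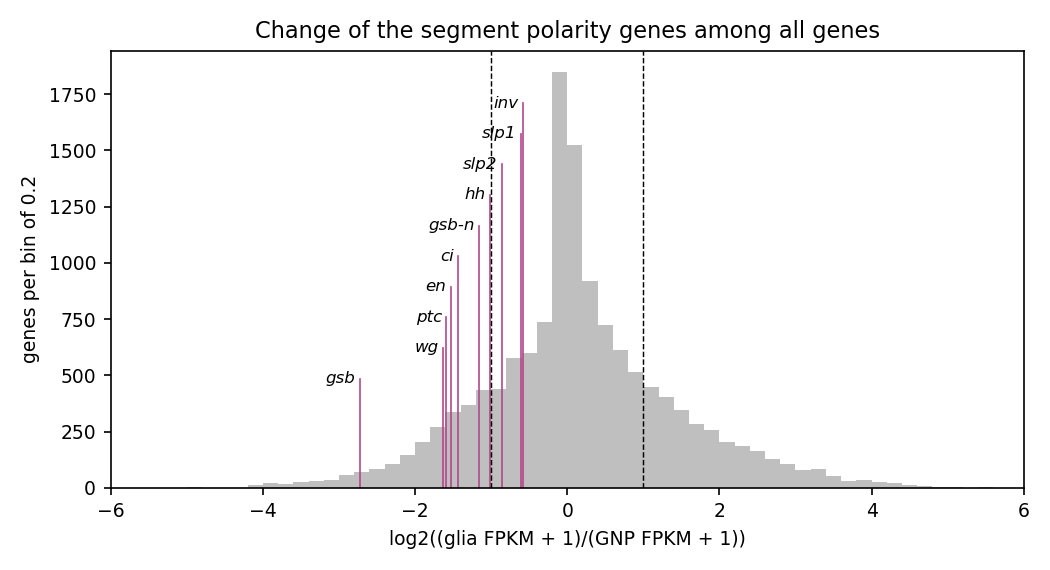
Histogram of the log2 change of all 13623 genes (glia against GNP, bins of 0.2) with the 10 segment polarity genes marked by lines. Line heights only separate the names, and dashed lines mark 2-fold. All 10 lie left of 0, from gsb at -2.73 to inv at -0.58, and 7 lie left of the lower 2-fold line.

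The order of the levels differed between the libraries. In glia the order was ci, slp1, ptc, slp2, en, inv, wg, hh, gsb-n and gsb. The last 3 had overlapping counting intervals and cannot be ordered at this depth. In GNP the order was ci, slp1, ptc, gsb, en, slp2, wg, gsb-n, inv and hh. There slp1 could not be separated from ptc, gsb-n from inv, or inv from hh. Thus gsb took place 10 in glia and place 4 in GNP, while slp2 took place 4 in glia and place 6 in GNP. The genes whose 2 library values lay nearest to those of gsb (distance on the log2(FPKM + 1) scale over the 2 libraries) were mei-S332, a protector of centromere cohesion, with 5.95 FPKM in glia and 46.5 FPKM in GNP, and CG5026, with 5.87 FPKM in glia and 42.9 FPKM in GNP. Those nearest to inv were Wnt2, with 9.55 FPKM in glia and 14.6 FPKM in GNP, and Rrp45, an exosome subunit, with 9.51 FPKM in glia and 14.3 FPKM in GNP.

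Next, the genes that make, spread, receive and transduce the 2 signals were examined beside the members. Of 19 Hh pathway genes outside the members, 8 were at least 2-fold lower in glia, beside 16.4% of all genes. None was 2-fold higher, beside 21.2% of all genes, and the median log2 change of the 19 was -0.87. Among genes for release and spread, disp, which releases Hh from the cells that make it, had 4.49 FPKM in glia and 27.1 FPKM in GNP, a log2 change of -2.36. At the other end of that list was shf, a secreted factor for Hh spread, at 5.74 FPKM in glia and 2.55 FPKM in GNP, a log2 change of 0.93 that came to 1.07, past the limit, with upper quartile scaling. The signal transducer smo, which Ptc holds off, had 10.0123 FPKM in glia and 35.6 FPKM in GNP, and its log2 change of -1.73 was close to the -1.71 of the co-receptor ihog. The other co-receptor, boi, had 16.8 FPKM in glia and 18.7 FPKM in GNP. Of the genes between Smo and Ci, fu, the pathway's kinase, had 6.42 FPKM in glia and 29.7 FPKM in GNP, a log2 change of -2.05. The kinesin-like cos had a log2 change of -2.03, and Su(fu), which holds Ci in the cytoplasm, had -1.42. CkIalpha, a kinase with many substrates, had 374 FPKM in glia and 338 FPKM in GNP.

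Of 16 Wnt pathway genes outside the members, 8 were at least 2-fold lower in glia and 2 at least 2-fold higher, with a median log2 change of -1.05. Over all genes 16.4% were lower and 21.2% higher. Among genes for making and spreading the signal, wls, the carrier that brings Wg to the cell surface, had 22.7 FPKM in glia and 89.1 FPKM in GNP, a log2 change of -1.93. The gene por, whose enzyme attaches the lipid to Wnt proteins, was higher, with 29.6 FPKM in glia and 11.4 FPKM in GNP, a log2 change of 1.31. Of the receptors, arr had 8.46 FPKM in glia and 25.7 FPKM in GNP, a log2 change of -1.50, while fz2 had 93.1 FPKM in glia and 87.3 FPKM in GNP. The 2 APC genes, scaffolds of the complex that destroys Armadillo, went opposite ways. Apc2 had 5.41 FPKM in glia and 52.4 FPKM in GNP, a log2 change of -3.06. Apc had 17.3 FPKM in glia and 7.06 FPKM in GNP, a log2 change of 1.19 that came to 0.97, under the limit, with TPM scaling.

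The other Wnt ligands were not uniformly lower in glia. Of 6 ligand genes, 2 passed 2-fold upward in glia and 1 downward, beside 21.2% and 16.4% of all genes. Their median log2 change was 0.15. The wg gene lies on chromosome 2L in a cluster of 4 Wnt genes, in the order Wnt4, wg, Wnt6 and Wnt10. Wnt4 (chr2L:7255419-7277171) had 92.0 FPKM in glia and 23.1 FPKM in GNP, a log2 change of 1.95. Wnt6 (chr2L:7333714-7352542) had 11.7 FPKM in glia and 1.30 FPKM in GNP, a log2 change of 2.47. Wnt10 (chr2L:7363379-7377528) had 0.911 FPKM in glia and 0.0424 FPKM in GNP. Thus wg was the only gene of the cluster with a lower value in glia. The lowest change among the ligands was that of wntD, at 0.622 FPKM in glia and 14.6 FPKM in GNP.

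The remaining regulators gave a mixed picture. Of 9 other genes of segment pattern, 2 passed 2-fold upward in glia and 2 downward, beside 21.2% and 16.4% of all genes, and 5 passed neither. With TPM scaling 3 passed downward and with upper quartile scaling 1 did, beside 20.4% and 13.7% of all genes. The lowest change was that of ftz, a pair-rule gene, at 0.633 FPKM in glia and 14.98 FPKM in GNP. At the other end was H15, a T-box gene, at 5.02 FPKM in glia and 0.718 FPKM in GNP. Another pair-rule gene, eve, also passed 2-fold upward, with 12.9 FPKM in glia and 4.02 FPKM in GNP, a log2 change of 1.47. Of the Engrailed co-factors, the corepressor gene gro had 57.4 FPKM in glia and 200.3 FPKM in GNP, a log2 change of -1.78. The homeodomain partner gene hth had 525 FPKM in glia and 235 FPKM in GNP, a log2 change of 1.16 that came to 0.91 with TPM scaling. Of 7 genes known to act downstream of these signals in epidermis or nervous system, 4 passed 2-fold upward in glia and none downward. The shares over all genes were 21.2% and 16.4%. The largest change was that of sr, which specifies tendon cells, at 13.1 FPKM in glia and 1.54 FPKM in GNP, and the lowest was that of ovo, at 13.4 FPKM in glia and 25.7 FPKM in GNP, which passed 2-fold lower with TPM scaling.

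The relatives of the Gooseberry and Sloppy paired genes by protein family were examined next. As deposited, none of 8 other Pax genes passed 2-fold in either direction, while 21.2% of all genes passed it upward and 16.4% downward. The median log2 change of these 8 was 0.45. With TPM scaling Poxm passed downward at -1.09, and with upper quartile scaling sv passed upward at 1.16. They ran from Poxm, at 2.49 FPKM in glia and 5.27 FPKM in GNP, to sv, at 15.8 FPKM in glia and 7.44 FPKM in GNP. Of 12 other fork head genes, 2 were at least 2-fold higher and 2 lower, beside 21.2% and 16.4% of all genes, and 8 lay between. With TPM scaling 1 was higher and 4 lower, beside 18.7% and 20.4% of all genes. Their median log2 change was -0.11, which turned to 0.02 with upper quartile scaling. They ran from jumu, at 8.58 FPKM in glia and 59.7 FPKM in GNP, to fd59A, at 2.24 FPKM in glia and 0.469 FPKM in GNP. All of these lists were chosen with earlier results of the data known, and they describe 2 libraries.

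**Figure D3:**
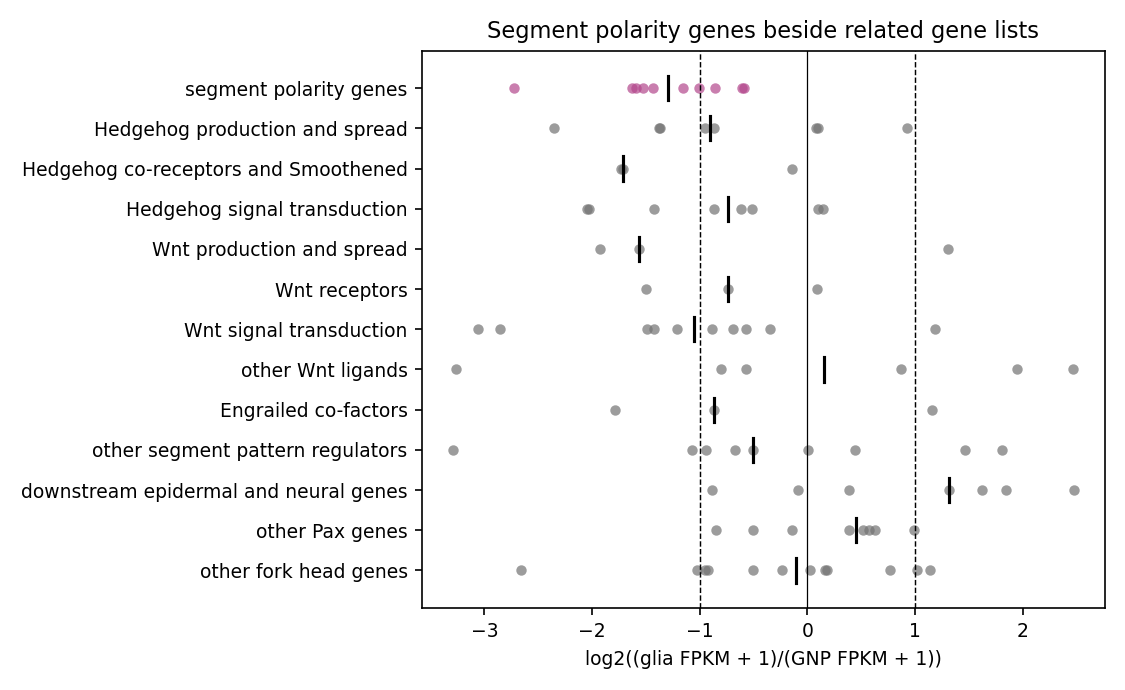
Log2 change (glia against GNP) of each gene in the segment polarity group and in 12 lists of related genes. Points are genes, short vertical bars are list medians, and dashed lines mark 2-fold. All 10 segment polarity genes lie left of 0 around a median of -1.29, whereas the other Wnt ligands, Pax genes and fork head genes spread over both sides. Other lists also lie mostly to the left. The medians are -1.71 for Hh co-receptors and Smo, -1.56 for Wnt production and -1.05 for Wnt signal transduction. In these lists 3 of 3, 2 of 3 and 9 of 10 genes lie below 0.

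Genes next to the members differed in direction. The 10 genes occupy 7 loci, and the 14 protein-coding genes that flank these loci in BDGP6 were all in the table. Of the flanking genes 5 were at least 2-fold lower in glia, 4 higher and 5 between, with a median log2 change of -0.45. Over all genes 16.4% were lower and 21.2% higher. Both neighbours of the en and inv locus were lower. E(Pc) had 13.2 FPKM in glia and 53.9 FPKM in GNP, and tou had 31.9 FPKM in glia and 77.3 FPKM in GNP. In contrast, both neighbours of the gsb locus were higher. Nplp1, a neuropeptide precursor, had 4.59 FPKM in glia and 1.03 FPKM in GNP, and gol had 16.8 FPKM in glia and 3.99 FPKM in GNP. These flanking genes were looked at after the values of the members were known.

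Markers of cell types were set beside these changes, and their part in the results was not tested. Over all genes 16.4% were at least 2-fold lower in glia and 21.2% at least 2-fold higher. Of 8 glia markers 4 were at least 2-fold higher in glia and 4 lay between, with a median log2 change of 0.86. With TPM scaling 3 were higher and 1 lower, since nrv2 came to 0.87 and gcm to -1.12. The marker with the largest change was repo, which marks nearly all glia, with 32.0 FPKM in glia and 3.84 FPKM in GNP. The glial genes gcm and pnt had log2 changes of -0.87 and -0.41, and loco had 0.26. Of 7 neuroblast markers 4 were at least 2-fold lower in glia and none was higher, and their FPKM values summed to 143 in glia and 327 in GNP. The neuroblast gene dpn had 7.75 FPKM in glia and 40.4 FPKM in GNP, a log2 change of -2.24, so that this list moved in the direction of the 10 genes. Of 4 heart and early mesoderm markers, a tissue that also uses wg, hh and slp, 3 were at least 2-fold lower, with sums of 176 FPKM in glia and 206 FPKM in GNP. Most of both sums came from how, with 160 FPKM in glia and 144 FPKM in GNP, a log2 change of 0.16. The other markers, tin, twi and bap, had log2 changes of -2.41, -1.23 and -2.06. Markers of epidermis, where these genes are also active, were split, with 4 of 8 at least 2-fold higher, the other 4 below 0, and sums of 157 FPKM in glia and 83.8 FPKM in GNP. The 4 below 0 were y at -0.99, ovo at -0.88, grh at -0.31 and Ddc at -0.02, and with TPM scaling y and ovo passed 2-fold lower. The general epidermal factor grh had 37.4 FPKM in glia and 46.7 FPKM in GNP. The table holds 4 of the neuron markers, of which 3 were at least 2-fold higher. The 4 markers summed to 414 FPKM in glia and 97.7 FPKM in GNP, and fne gave 327 FPKM of the glia sum. The remaining neuron marker, elav, was lower, with 44.2 FPKM in glia and 76.9 FPKM in GNP. Its log2 change of -0.78 came to -1.04, past the limit, with TPM scaling. Of 5 muscle markers 4 were at least 2-fold higher. The 5 markers summed to 4973 FPKM in glia and 760 FPKM in GNP, and Act57B gave 3197 FPKM of the glia sum. The remaining muscle marker, Mef2, lay below 0 at -0.41, with 43.7 FPKM in glia and 58.3 FPKM in GNP. Midline markers summed to 134 FPKM in glia and 124 FPKM in GNP, but went different ways. Their log2 changes were 2.80 for wrapper, 0.05 for aos, -0.28 for sli and -0.90 for sim. With TPM scaling sim came to -1.14, past the limit. Hindgut markers summed to 40.3 FPKM in glia and 48.9 FPKM in GNP. Trachea markers summed to 29.0 FPKM in glia and 43.8 FPKM in GNP. Of these, btl had a log2 change of -1.58 and trh one of -0.06. Hemocyte markers summed to 106 FPKM in glia and 85.9 FPKM in GNP. Of the 4 hemocyte markers Pxn was higher, with 55.4 FPKM in glia and 10.2 FPKM in GNP, and the other 3 were below 0, with a list median of -0.53. No marker in the table was at 0 in either library.

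The scaling of the libraries shifted all 10 values together without turning any of them. Scaling both libraries to the same sum (TPM, which divides each value by the library's total) moved glia against GNP by -0.25 on the log2 scale, and a common upper quartile moved it by 0.18. Under TPM 8 of the 10 genes were at least 2-fold lower, beside 20.4% of all genes. Under upper quartile scaling 5 were, beside 13.7% of all genes. With a limit of 1.5-fold 9 of the 10 were lower, beside 24.1% of all genes, and with 4-fold gsb alone was, beside 4.51%. The genes that crossed the 2-fold limit with the scaling were slp2 under TPM and hh and gsb-n under upper quartile scaling. Among the 7811 genes whose mean reached 5 FPKM, which include all 10, 25.1% were at least 2-fold lower as deposited. Leaving low genes out thus raised the share over all genes, and the count of 7 of 10 stood above it.

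**Figure D4:**
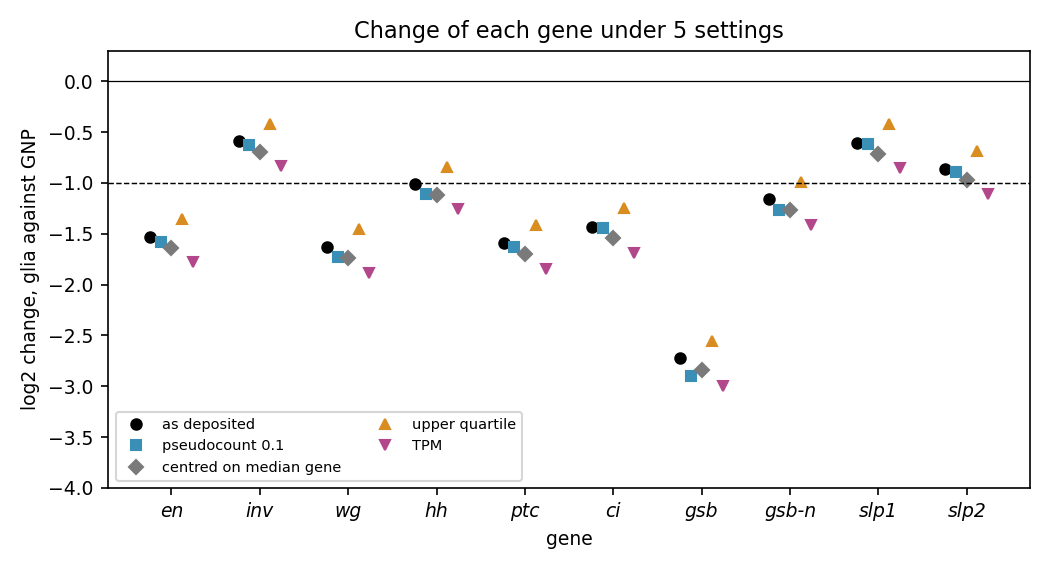
Log2 change of each segment polarity gene (glia against GNP) as deposited and under 4 other settings. The dashed line marks 2-fold lower and the solid line no change. All values lie below 0, and hh, gsb-n and slp2 are the genes that cross the 2-fold line between settings.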

How the data were processed

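A table of nuclear RNA, with a glia and a GNP library, was used. Per the labels and the methods, the authors aligned 49 bp single-end reads to FlyBase transcripts (build dm3; TopHat 1.3.1 with Bowtie) and quantified uniquely mapped reads with Cuffdiff 1.3.0. The deposited values are FPKM, which the methods of the paper call RPKM. The deposited table also holds the authors' own p-value and call for each gene, which were not used. No value was left out of the table.

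The change of each gene was log2((glia FPKM + 1)/(GNP FPKM + 1)), and a gene was counted as changed at 2-fold. No test across genes was run because there was 1 library per group. The computation was tested on simulated data. Alternatives were a pseudocount of 0.1, 3 scalings, limits of 1.5-fold and 4-fold, and a mean of at least 1 FPKM.

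Depth was estimated from the low values among 5698 genes that have a single transcript no shorter than 600 bases. In glia 84.3% of 802 such low values, and in GNP 83.0% of 801, came within 0.1 of whole reads. Ensembl release 115 (BDGP6) held 13465 of the 13623 symbols. BDGP6 is later than dm3, so places and lengths are those of BDGP6 and no coordinate was converted. Promoter and protein sequences were not used here.

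The members and the 22 gene lists were chosen with earlier results of these data known. Named genes are the 10 members, the extremes of each pathway list, the genes nearest to the members with the largest and the smallest fall, and markers or flanking genes set beside a result. Further pathway genes (ihog, cos, Su(fu), Wnt4, Wnt10 and eve) were named after their values were seen. Since no member was higher in glia, the smallest fall stood in for the largest rise. Software: numpy 2.4.6 and pandas 2.3.3 under Python 3.11.15, with scipy 1.17.1 for intervals and matplotlib 3.10.9 for plots.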

Additional observations from a re-analysis of the deposited data

How the results depend on the processing

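For 18 results 68 alternatives were run, and in 61 of them the value stayed on its side of 2-fold, within its counting error or, for a count, within 1.5 times. No direction was reversed. With upper quartile scaling hh came to -0.84 and gsb-n to -0.99, both under the limit, and the median level of the 10 genes in GNP came to 5.17 on the log2(FPKM + 1) scale. With TPM scaling slp2 came to -1.11, past the limit, and the median levels came to 3.82 in glia and 5.67 in GNP, against 3.66 and 5.25 as deposited. The steps of hh, gsb-n and slp2 follow from the shifts of glia against GNP, 0.18 and -0.25 on the log2 scale. Those of the median levels follow from the scaling of each library by itself. With a limit of 4-fold, 1 gene (gsb) was lower, beside 4.51% of all genes, and with 1.5-fold 9 genes were, beside 24.1%, inv being the exception. No paired analysis was possible because each cell type had 1 library, and for the same reason no library could be left out. With at least 463 estimated reads for each gene, depth limited only the order of neighbours in level whose counting intervals overlapped. No further library was at hand to repeat a difference.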
